A study of Rattus norvegicus and Ovis aries with 113 samples.

Results

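Protamines and transition proteins are the small basic proteins that replace histones on DNA while a spermatid matures. The 5 genes PRM1, PRM2, PRM3, TNP1 and TNP2 were taken by symbol, without regard to case, from tables of 31304 sheep genes and 38675 rat genes, and all 5 were present in both species. The study sequenced messenger RNA from nervous and reproductive tissue of sheep (Ovis aries) and Sprague Dawley rats. The sheep were 5 post-pubertal males, each giving 1 sperm sample and 10 dissected brain regions from the same hemisphere (basal ganglia, cerebellum, pons, hippocampus and entorhinal, frontal, motor, prefrontal, posterior parietal and visual cortex), which made 55 libraries. The rats were 15 post-pubertal males, each giving a whole brain and a sample labelled sperm, and 14 females, each giving a whole brain and ovaries, which made 58 libraries. The rat sperm samples were seminal fluid taken after death, so they can hold cells other than sperm. No animal is described as treated or genetically altered. Levels are counts per 1000000 (CPM) of all counts assigned to genes in a library unless another scale is named.

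In elongating and condensing spermatids the transition proteins TNP1 and TNP2 take the place of histones first, and the protamines PRM1 and PRM2 then take the place of the transition proteins and pack the DNA of the sperm head. PRM3 is an acidic protein encoded beside them that is found in the cytoplasm and is not known to bind DNA. The genes are transcribed in round spermatids with the factor CREM as an activator, and the messenger RNAs are stored before translation, because transcription stops as the nucleus condenses. Ejaculated sperm are transcriptionally silent and keep remnants of these messengers. The 5 genes are textbook markers of haploid male germ cells and have no known role in brain.

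In the rat genome (GRCr8, from the RefSeq annotation), 4 of the genes lay in 1 stretch of 8.724 kb on chromosome 10: Prm1 at chr10:5378740-5379235, Prm2 at chr10:5383208-5383949, Prm3 at chr10:5384394-5384908 and Tnp2 at chr10:5386735-5387463. Tnp1 lay apart at chr9:82043669-82044278, on the minus strand. The annotated spans were 496 bases for Prm1, 742 for Prm2, 515 for Prm3, 729 for Tnp2 and 610 for Tnp1, introns included. A noncoding gene on the opposite strand, LOC120095020 at chr10:5385769-5386790, shared 56 bases with the start of Tnp2. The sequences below are the 250 bases upstream of each annotated start that RefSeq's table held, for 4 of the 5 genes, and they are shown because all 5 genes were highest in the same 3 rat sperm libraries, while Tnp1 otherwise departed from Prm1. Capitals mark matches to TGACGTCA (the cyclic AMP response element that CREM binds), to TGANNTCA (a looser form that includes it, searched on both strands) and to TATAA (the TATA box core, on the gene's strand).
Tnp1, chr9:82044279-82044528, minus strand: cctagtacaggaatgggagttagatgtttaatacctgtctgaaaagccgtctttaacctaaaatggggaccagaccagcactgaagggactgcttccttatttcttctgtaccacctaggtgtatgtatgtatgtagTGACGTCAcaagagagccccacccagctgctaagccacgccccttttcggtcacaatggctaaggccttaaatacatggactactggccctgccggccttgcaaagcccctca
Tnp2, chr10:5386485-5386734, plus strand: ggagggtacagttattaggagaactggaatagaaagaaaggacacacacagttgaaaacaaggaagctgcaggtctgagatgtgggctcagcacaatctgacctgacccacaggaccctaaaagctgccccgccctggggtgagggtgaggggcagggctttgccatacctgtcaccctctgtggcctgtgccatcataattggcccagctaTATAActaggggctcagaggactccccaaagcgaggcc
Prm1, chr10:5378490-5378739, plus strand: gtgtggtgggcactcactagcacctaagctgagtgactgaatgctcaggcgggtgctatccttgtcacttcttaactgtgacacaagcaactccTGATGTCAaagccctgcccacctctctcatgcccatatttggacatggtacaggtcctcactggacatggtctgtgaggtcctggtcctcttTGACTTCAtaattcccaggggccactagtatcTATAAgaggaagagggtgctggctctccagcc
Prm3, chr10:5384144-5384393, plus strand: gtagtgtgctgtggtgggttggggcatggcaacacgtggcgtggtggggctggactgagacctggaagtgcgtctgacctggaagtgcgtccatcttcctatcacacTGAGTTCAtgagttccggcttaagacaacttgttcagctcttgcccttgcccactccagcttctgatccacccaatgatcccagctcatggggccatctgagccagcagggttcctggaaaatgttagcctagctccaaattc

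The full element TGACGTCA occurred in the Tnp1 window, 113 to 106 bases before the start. The looser form occurred once more in Prm3, 143 to 136 bases before the start, and at a pair of places in Prm1, 156 to 149 and 64 to 57 bases before it. TATAA lay 32 to 28 bases before the start of Prm1 and 38 to 34 bases before that of Tnp2. Among 33465 windows of the same length in the table, 1.59% held TGACGTCA, 13.2% held TGANNTCA and 16.7% held TATAA. GC content was 49.6% in the Tnp1 window, 52.4% in Prm1, 54.8% in Tnp2 and 55.2% in Prm3. These are matches of letters, and binding was not measured.

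**Figure D1:**
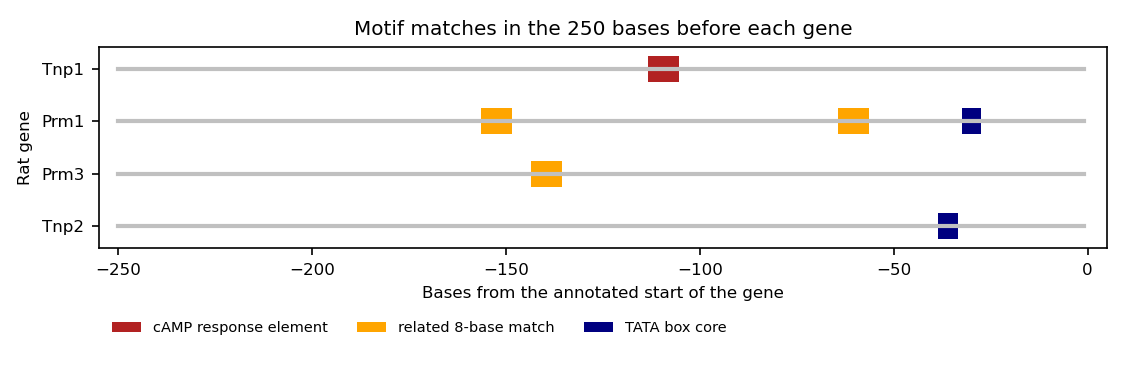
Motif matches in the 250 bases before the annotated start of 4 rat genes. The x axis is the distance in bases from the start of the gene, grey lines are the windows, and boxes are matches coloured by motif; the full cyclic AMP response element is in Tnp1, 113 to 106 bases before the start, and the TATA box core is in Prm1 and Tnp2.

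Sperm libraries held 13.7 to 65.1 M counts in both species (M, units of 1000000), brain libraries 38.2 to 119 M and ovary libraries 50.5 to 60.3 M. In sheep sperm, 4 abundant entries without a gene name took 22.4% to 85.2% of the counts, so CPM there is diluted unequally. In rat sperm, ribosomal RNA and placeholder entries took 2.40% to 36.2%. Rat sperm libraries 7, 16 and 17 held few genes with a count of exactly 1 (215, 196 and 161, against 1036 to 2005 in the other 12), and sheep sperm libraries 687, 694 and 699 held 339, 428 and 340, against 987 and 1038 in the other two. The most genes at 0 in rat sperm were 24945 in library 16 and 25616 in library 17, against 8083 to 17061 in the others. Rat libraries 16 and 17 were left out together, and sheep animals 1 at a time, and results are given where that changed a call. Library 7 was left out together with 16 and 17 only in the ratios between species. Sheep libraries 687, 694 and 699 were not left out together.

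All 5 genes were present in every rat sperm library except Tnp1 in library 17, but their levels differed widely between animals (551 times between the highest and the lowest library for Prm1), and 3 libraries (3, 7 and 14) stood above the rest for every gene. Tnp1, the first transition protein, ranged from 0 counts in library 17 through a median of 7.53 CPM to 4776 CPM in library 14. By the total of library 17 alone, a count of 0 allows up to 0.219 CPM. That library had 25616 genes at 0, so its 0 for Tnp1 is weak evidence of absence. It was 3461 CPM in library 7, 1069 CPM in library 3 and 365 CPM in library 13, and at most 40.7 CPM in the other 11, so that these 4 libraries were separated from the others by the widest gap in the ordered values. Tnp2, the second transition protein, ranged from 1.80 CPM in library 6 through a median of 49.5 CPM to 5076 CPM in library 14. Library 7 had 4716 CPM of Tnp2, library 3 had 1641 CPM, library 13 had 292 CPM, and none of the other 11 exceeded 78.3 CPM.

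Prm1, the protamine found in all mammals, ranged from 10.7 CPM in library 6 through a median of 93.7 CPM to 5899 CPM in library 7. It had rank 7 among all genes by CPM in library 7, rank 11 in library 14 (4543 CPM) and rank 30 in library 3 (2295 CPM), and it reached 475 CPM in library 10 and 401 CPM in library 13. Prm2, the second protamine, ranged from 0.538 CPM in library 5 through 11.4 CPM to 773 CPM in library 7. Its widest gap on log2(CPM + 1) lay between 68.1 CPM in library 13 and 293 CPM in library 3. Prm3 ranged from 0.404 CPM in library 11 through 8.41 CPM to 777 CPM in library 7. On the same log2 scale its widest gap lay between 28.1 CPM in library 13 and 164 CPM in library 3. The means were therefore set by a few animals: Prm1 averaged 957 ± 1841 CPM (SD, n = 15), Prm2 127 ± 253 CPM, Prm3 97.7 ± 220 CPM, Tnp1 651 ± 1457 CPM and Tnp2 801 ± 1715 CPM, each SD larger than its mean. Per kb of annotated gene span, Prm1 had the highest level of the 5 genes in 15 of 15 libraries, with a median of 189 CPM per kb against 67.9 for Tnp2, 16.3 for Prm3, 15.3 for Prm2 and 12.3 for Tnp1. Spans include introns, so this order is approximate.

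**Figure D2:**
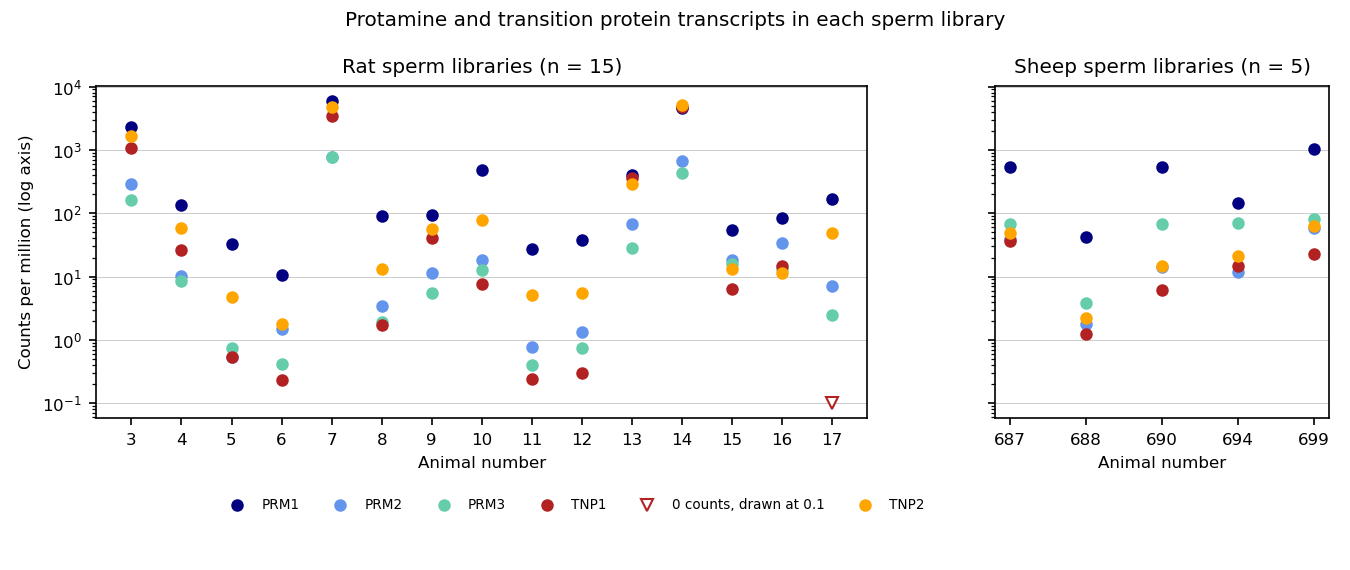
CPM of each gene (log axis, colours) in each rat and each sheep sperm library, by animal number. Rat libraries 3, 7 and 14 stand above the others for all 5 genes, Tnp1 in rat library 17 has 0 counts and is drawn at 0.1, and sheep library 688 is the lowest of 5 for every gene.

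Sheep sperm held the same 5 messengers in every library, with 20.7 to 32.5 times between the lowest and the highest library, and animal 688 was the lowest for each of them. TNP1 was 37.1 CPM in animal 687, 1.24 in 688, 6.20 in 690, 14.6 in 694 and 23.1 in 699. TNP2 was 48.6, 2.22, 14.6, 21.5 and 63.8 CPM in the same order of animals. Both transition proteins were thus highest in 687 and 699. PRM1 was 546 CPM in 687, 41.4 in 688, 536 in 690, 146 in 694 and 1033 in 699. PRM2 was 38.9, 1.81, 14.3, 11.9 and 58.8 CPM in the same order. PRM3 differed from the other genes: it was 68.4, 3.86, 68.5, 69.7 and 80.1 CPM, nearly level on this scale in the 4 animals other than 688. The means were 460 ± 392 CPM (SD, n = 5) for PRM1, 25.1 ± 23.2 for PRM2, 58.1 ± 30.7 for PRM3, 16.4 ± 14.2 for TNP1 and 30.1 ± 25.4 for TNP2. When the 4 abundant unnamed entries were left out of the total, these means became 1900, 113, 224, 79.4 and 136 CPM, because the entries took most of the counts in 4 of the 5 libraries. On that scale PRM1 ranged from 53.4 to 4259 CPM and TNP1 from 1.60 to 250 CPM, wider than on plain totals. PRM3 was then 4.98 CPM in 688 and 146 to 461 CPM in the other 4, no longer level. The order of the animals for PRM3 depends on that dilution, but ratios between genes of 1 library do not.

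Libraries also differed in the proportions of the 5 messengers, and the transition protein Tnp1 varied most against Prm1. The log2 ratio of Tnp1 to Prm1 counts (0.5 added to each) was 0.07 in rat library 14, -0.14 in 13, -0.77 in 7, -1.10 in 3 and -1.20 in 9. It was -2.36 in library 4, -2.49 in 16 and -3.09 in 15. It lay between -5.45 and -6.94 in libraries 5, 6, 8, 10, 11 and 12, and was -12.16 in library 17, where Tnp1 had no count. Rat libraries with similar Prm1 could therefore hold very different amounts of Tnp1: library 13 had 401 CPM of Prm1 with 365 CPM of Tnp1, and library 10 had 475 CPM of Prm1 with 7.53 CPM of Tnp1. Tnp2 followed Prm1 more closely, with log2 ratios from -2.89 to 0.16 and an SD of 1.09 over the 15 libraries, against 3.38 for Tnp1 to Prm1. That 3.38 includes library 17, whose ratio rests on the 0.5 added to a count of 0. In the other libraries Tnp1 to Prm1 ranged from -6.94 to 0.07. The SD was 1.35 for Prm2 to Prm1, 1.31 for Prm3 to Prm1 and 0.60 for Prm3 to Prm2, the steadiest of the 10 pairs in rat. In sheep the log2 ratio of TNP1 to PRM1 ranged from -6.42 to -3.32, inside the rat range.

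**Figure D3:**
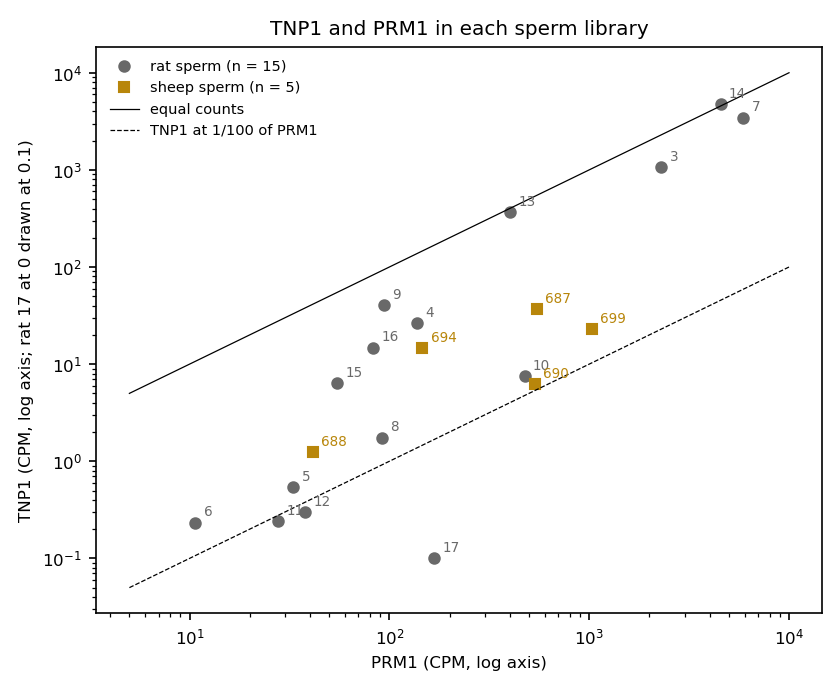
TNP1 against PRM1 in each sperm library, both in CPM on log axes, with animal numbers beside the points. Rat libraries 13 and 14 lie on the line of equal counts, rat library 10 lies near the line where TNP1 is 1/100 of PRM1, and rat library 17, with 0 TNP1 counts, is drawn at 0.1.

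By mean log2(CPM + 1), spermatocyte genes and late spermatid and sperm genes were both highest in the 4 libraries richest in Tnp1. The lists of spermatogonia genes and of Sertoli and Leydig cell genes followed only in part. The mean log2(CPM + 1) of 10 spermatocyte genes was 4.48 in library 14, 4.04 in 7, 2.71 in 3 and 2.19 in 13, and 0.87 to 1.63 in the other 11. By summed CPM these genes were highest in libraries 14 (382) and 7 (332), but libraries 15 (119) and 17 (109) exceeded 3 (94.8) and 13 (78.1). Of these genes, Sycp3, a part of the axis of meiotic chromosomes, had a median of 0.247 CPM and a highest value of 104 CPM over the 15 libraries. The mean over 23 late spermatid and sperm genes was 8.90 in library 14, 8.56 in 7, 7.44 in 3 and 6.00 in 13, against 1.91 to 5.23 in the other 11. Their summed CPM was lower in library 13 (3561) than in libraries 10, 15, 16 and 17 (3606 to 9873). The mean over 7 spermatogonia genes was 2.89 in library 7, 2.85 in 14, 2.53 in 3 and 2.2 in 13, against 1.76 to 2.29 in the other 11, the highest of these being library 16. The mean over 12 Sertoli and Leydig cell genes, markers of the somatic cells of the testis, was 2.5 in library 7 and 2.15 in 14, 1.52 in 3 and 1.37 in 13, against 0.79 to 1.60 in the other 11. The mean over 7 neuron genes, a list from outside the testis, was also highest in libraries 14 (1.33) and 7 (1.24). It was 0.58 in library 3 and 0.29 in 13, against 0.16 to 0.69 in the other 11. The share of spermatids, of sperm and of germ cells shed before they mature was not measured, and in bulk RNA fewer cells of a type and less messenger per cell cannot be told apart. The part of cell makeup in the differences between libraries was not tested.

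In the 11 rat libraries below the widest Tnp1 gap, Tnp2 varied with Prm1 and Prm3 with Prm2 by both measures used, and the other 8 pairs did not pass by both. This division into 4 and 11 libraries was made after the values were seen. It was made on Tnp1 itself, which cuts the range of Tnp1 and can lower its correlations. For each of the other 4 genes the widest gap, also on log2(CPM + 1), left 12 libraries below it and 3 above. No test of a correlation over all 15 is given because the libraries form separate groups. Across all 15, Tnp1 and Prm1 had r = 0.898, not tested. Over the 11 libraries, log2(CPM + 1) of Prm3 and Prm2 had Pearson's r = 0.958 (permutation test with 100000 resamples, two-sided, adjusted p = 0.0002 over 10 pairs) and Spearman's rho = 0.936 (adjusted p = 0.00045). Tnp2 and Prm1 had r = 0.918 (permutation, adjusted p = 0.0002) and rho = 0.955 (adjusted p = 0.0003). Without the 2 libraries farthest from the median, r was 0.955 and 0.894. Pearson's r of the other 8 pairs ranged from 0.490 to 0.793 and passed an adjusted p of 0.05 in 7 of them, Tnp1 with Prm1 being the exception (r = 0.490, permutation, adjusted p = 0.128, rho = 0.455). By Spearman's rho, 0 of these 8 pairs passed, with adjusted p from 0.0684 to 0.164 by permutation, so those 7 calls depend on the measure. Without libraries 16 and 17 Tnp1 and Prm1 had r = 0.665 (n = 9, permutation, adjusted p = 0.0485). Dilution by other transcripts differed between these libraries, and a correlation of CPM reads that too. Ribosomal RNA and placeholder entries alone took from 3.10% of the counts in library 6 to 36.2% in library 5.

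Between species, 3 of the 10 ratios differed: PRM3 to TNP2, PRM3 to PRM2 and TNP2 to PRM1. The 10 pairs share genes, so their ratios are not independent. The log2 ratio of PRM3 to TNP2 was 1.11 ± 0.82 in sheep sperm (SD, n = 5) and -2.63 ± 1.29 in rat sperm (n = 15), a difference of 3.74 (exact permutation test, two-sided, adjusted p = 0.00129 over 10 pairs of genes). The sheep values, 0.33 to 2.23, did not overlap the rat values, -4.30 to 0.27. PRM3 to PRM2 was 1.43 ± 0.92 in sheep and -0.77 ± 0.60 in rat, a difference of 2.21 (exact permutation, adjusted p = 0.00129), with 1 rat library inside the sheep range. TNP2 to PRM1 was lower in sheep, -3.94 ± 0.90 against -1.72 ± 1.09, a difference of -2.22 (exact permutation, adjusted p = 0.00215). PRM3 to PRM1 did not pass, at -2.83 ± 1.03 in sheep and -4.35 ± 1.31 in rat (difference 1.52, exact permutation, adjusted p = 0.0764). The other 6 pairs did not pass either, with differences from -0.83 to 2.35 and adjusted p from 0.0764 to 0.829 by the exact permutation test. PRM2 to PRM1 was among them, at -4.26 ± 0.64 in sheep and -3.57 ± 1.35 in rat (difference -0.68, exact permutation, adjusted p = 0.365). Without rat libraries 16 and 17, PRM3 to TNP1 (difference 2.86) and PRM2 to TNP2 (difference 1.73) also passed, at exact permutation adjusted p = 0.00233 and 0.00887. Within rat, the log2 ratio of Tnp2 to Prm1 was -0.48 to 0.16 in libraries 3, 7, 13 and 14 and -2.89 to -0.76 in the others. Species, kind of sample, cell makeup, extraction, library kit and the length of each gene's messenger in each species cannot be told apart here.

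**Figure D4:**
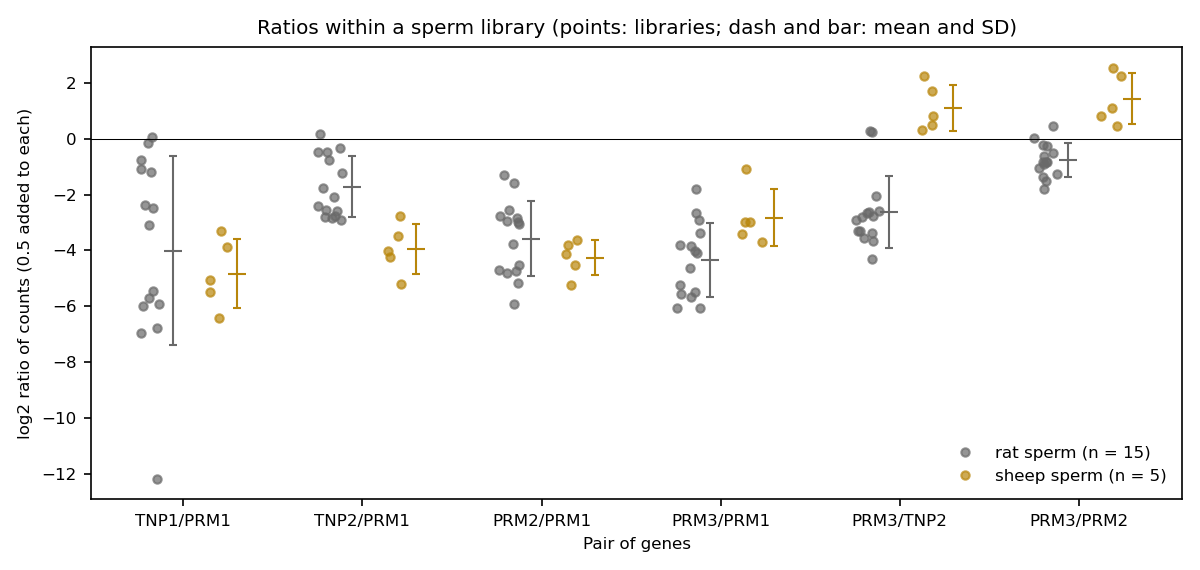
Log2 ratios of the counts of pairs of genes within each sperm library, for 15 rat and 5 sheep libraries. Points are libraries, and the dash and bar beside them are the mean and SD. Sheep and rat do not overlap for PRM3/TNP2. Rat TNP1/PRM1 is spread from -12.16 (library 17, with 0 TNP1 counts) to 0.07.

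All 5 genes were called higher in sperm than in brain in both species, and higher in rat sperm than in rat ovary (edgeR quasi-likelihood test, adjusted p below 0.05 over all genes and a log2 difference of at least 1). These genes passed the low-count filter through their counts in sperm, so once tested they could hardly be called lower. The calls and their adjusted p are therefore descriptions and no support beyond the levels themselves. Of all genes tested, 33.1% were called higher in sheep sperm than in sheep brain, 27.7% in rat sperm than in male rat brain, and 22.9% in rat sperm than in ovary. The median log2 difference of the 5 genes was 15.94 in sheep, 15.29 in rat against brain and 14.87 against ovary, and that of all genes tested was -0.42, -0.03 and -0.12. Every sheep sperm library exceeded every sheep brain library for 5 of 5 genes, which 3.77% of all genes tested did. In rat the same held for 4 of 5 against male brain (7.84% of all genes) and for 4 of 5 against ovary (5% of all genes). The exception in both was Tnp1, with 0 counts in sperm library 17.

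Among the transition proteins, sheep TNP1 had 65 counts over the 50 brain libraries, 0.0228 CPM of their pooled counts, and its mean CPM in sperm was 721 times higher (95% exact Poisson interval for the brain counts 565 to 934). The fitted log2 difference was 12.72 ± 0.37 (SE, edgeR adjusted p = 1.28e-32). This fit and the others reported here used group means only. The 50 brain libraries of 5 sheep thus counted as separate samples, and samples of the same animal were not paired. A replicate block is among the alternatives in the closing section. Sheep TNP2 had 19 brain counts, and its mean CPM in sperm was 4522 times higher (2896 to 7510). Its fitted difference was 15.34 ± 0.40 (edgeR adjusted p = 1.14e-25). Both fitted values exceed the plain ratios, in part because TMM scaling raised sheep sperm levels (TNP1 averaged 97.6 TMM-scaled CPM against 16.4 CPM). Rat Tnp1 had 5 counts in 15 male brains, and its mean in sperm was 102995 times higher (44134 to 317202, log2 difference 16.36 ± 2.05, edgeR adjusted p = 1.68e-08). Rat Tnp2 had 146 counts in male brain and a mean 4340 times higher in sperm (3690 to 5140, log2 difference 12.26 ± 1.39, edgeR adjusted p = 2.29e-09). Against ovary, where Tnp1 had 0 counts, Tnp1 was at least 168283-fold higher (edgeR adjusted p = 4.97e-05) and Tnp2 was 24847 times higher (16832 to 38395, adjusted p = 3.95e-09). Floors here are 3 counts over the whole lower group, and these intervals cover counting error in the lower group only, not the spread between sperm libraries.

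Among the protamines, sheep PRM1 had 0 counts in 2849515988 brain counts, and its fitted difference is no bound. Sheep PRM2 had 1 brain count, in entorhinal cortex, so the ratio of 71636 between sperm and brain has a counting interval of 12857 to 2829480. PRM3 had 16 brain counts in 8 of 50 libraries and a sperm mean 10355 times higher (6377 to 18117, log2 difference 15.94 ± 0.35, edgeR adjusted p = 2.31e-30). Sheep PRM1 and PRM2 were called at edgeR adjusted p = 9.05e-11 and 3.18e-13. In rat, Prm1 had 5 counts in male brain and a sperm mean 151280 times higher (64825 to 465910, log2 difference 16.85 ± 1.37, edgeR adjusted p = 1.42e-12). Prm2 had 7 and was 14396 times higher (6987 to 35805, 13.61 ± 1.40, edgeR adjusted p = 3.01e-10). Prm3 had 0 and was at least 25742-fold higher (edgeR adjusted p = 5.29e-06). In ovary Prm1 had 0 counts and was at least 247176-fold higher in sperm, Prm2 had 12 counts and was 8232 times higher (4713 to 15932), and Prm3 had 2 counts, a ratio of 37854 with a counting interval of 10479 to 312573 (edgeR adjusted p = 2.61e-07, 3.91e-09 and 6.62e-09).

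Against male brain, the differences of 4 of the 5 rat genes were smaller but still called without libraries 3, 7, 13 and 14, an alternative chosen after the values were seen. The log2 difference was then 13.86 ± 0.70 for Prm1, 9.89 ± 0.70 for Prm2, 11.25 ± 1.07 for Prm3 and 7.49 ± 0.56 for Tnp2, with edgeR adjusted p between 5.47e-17 and 1.16e-07. Tnp1 was not tested there, because it did not pass the low-count filter in the remaining libraries, and the comparison with ovary was not run without these libraries.

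**Figure D5:**
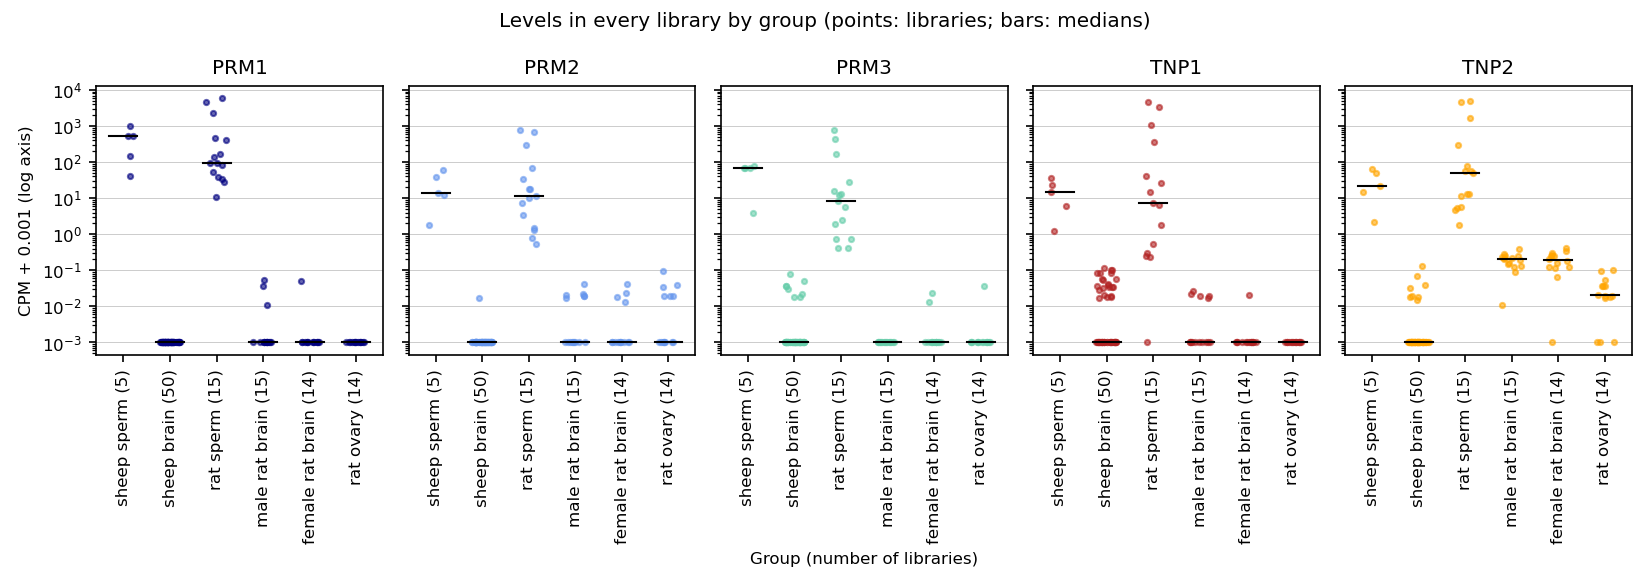
CPM + 0.001 (log axis) of each gene in every library by group, with the number of libraries in brackets. Points are libraries and bars are medians; sperm lies above brain and ovary for each gene except for Tnp1 in rat library 17, and TNP2 is the only gene with a median above 0 in rat brain and ovary.

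Outside sperm, Tnp2 in rat brain was the one member with counts in most libraries. It had at least 1 count in 15 of 15 male brains (146 counts, 0.193 ± 0.091 CPM, SD) and in 13 of 14 female brains (159 counts, 0.199 ± 0.111 CPM). The pooled levels in male and female brain, 0.185 and 0.179 CPM, had overlapping 95% exact Poisson intervals (0.156 to 0.217 and 0.152 to 0.209). The lowest brains were female 1 with 0 counts and male 4 with 0.00981 CPM, both filled with ribosomal RNA and placeholder entries (94.8% and 89.3% of their counts). In ovary Tnp2 had 25 counts in 11 of 14 libraries, 0.0319 ± 0.0319 CPM. The low-count filter removed all 5 genes from the comparison of ovary with female brain, in which 29.2% of genes tested were called lower in ovary. With no filter, Tnp2 was lower in ovary by a log2 difference of -2.73 ± 0.38 (edgeR adjusted p = 1.04e-07), and DESeq2 gave -2.88 ± 0.38 (adjusted p = 1.48e-13). Prm1 also passed with no filter (-1.73, edgeR adjusted p = 0.0327), on 4 counts that all came from 1 female brain, against 0 in ovary. Tnp1, Prm2 and Prm3 did not pass in that fit.

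The antisense gene LOC120095020, which overlaps the start of Tnp2, moved with it between brain and ovary. It had 0.448 CPM in male brain, 0.327 in female brain and 0.130 in ovary, each above Tnp2 in the same group, and 1.37 CPM in sperm, far below Tnp2. The strand setting of the counting is not given in the sources used here, so brain reads of Tnp2 and of this neighbour cannot be told apart with certainty. Sheep brain showed another pattern: TNP1 had counts in 22 of 50 libraries, with 16 in hippocampus, 13 in cerebellum, 10 in entorhinal cortex, 8 in visual cortex and 0 in pons over 5 animals each. TNP2 had 19 counts, of which 12 came from pons, and within pons 7 came from animal 694, 4 from 690 and 1 from 688. The highest brain library had 0.116 CPM of TNP1 and 0.131 CPM of TNP2, against lowest sperm values of 1.24 and 2.22 CPM. No test was made on these few counts.

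Of the lists of genes that act with the protamines, some members were called higher in sperm and others lower, while late spermatid and sperm genes were called higher in all 18 tested in rat and in 19 of 20 in sheep. The lists were compiled with earlier results of these data known, and their counts are descriptions to be read beside the shares of all genes called higher, given above, and lower (41.1% in sheep sperm and 31.5% in rat sperm against brain). Of histone variants made in germ cells, 2 of 2 tested in sheep were called higher in sperm than in brain (H1-6 with a log2 difference of 7.33 ± 0.27 and H3-4 with 6.83 ± 0.25, edgeR adjusted p = 1.11e-29 and 8.17e-30). Between sheep sperm libraries these histones did not follow the protamines: their summed level was 81.6 CPM in animal 688 and 8.24 to 19.4 CPM in the other 4. Animal 688 was the lowest for the 5 genes and, by summed CPM, the highest for neutrophil and squamous epithelium genes. The highest library had 77.4 CPM of H1-6, and the part of other cells in these calls was not tested. In rat 1 of 1 tested was called higher: Hils1, a linker histone of spermatid nuclei, by 10.01 ± 1.33 (edgeR adjusted p = 5.77e-08), with a range of 0.210 to 1185 CPM over the 15 sperm libraries. The linker histone H1f7 had a median of 2.64 CPM and a highest value of 574 CPM in rat sperm and was not tested.

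Of 16 tested genes with roles in the exchange of histones for protamines, 9 were called higher and 3 lower in sheep sperm than in brain, and 6 higher and 1 lower in rat sperm. TSSK6, a kinase needed for sperm chromatin to condense, averaged 107 CPM in sheep sperm, 9.14 ± 0.24 log2 units above brain (edgeR adjusted p = 1.31e-36). In rat it was 5.28 ± 0.59 above brain (edgeR adjusted p = 1.52e-09). Hspa2, a chaperone of the transition proteins, rose by 3.69 ± 0.71 in rat sperm (edgeR adjusted p = 2.47e-05) and fell in sheep sperm, with a log2 difference of -1.90 ± 0.64 (adjusted p = 0.006). Psme4, the activator of the proteasome that degrades acetylated histones, was 1.90 ± 0.10 higher in rat sperm than in brain (edgeR adjusted p = 9.12e-18), with 140 to 283 CPM in all 15 libraries. In sheep its difference was -0.04 ± 0.22 (adjusted p = 0.856). RNF20, which ubiquitinates histone H2B, was 1.41 ± 0.11 higher in sheep sperm (edgeR adjusted p = 3.1e-17) and 0.27 ± 0.16 in rat sperm (adjusted p = 0.11).

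Of 12 tested genes that control protamine transcription and translation, 7 were called higher and 0 lower in rat sperm than in brain, and 5 higher and 5 lower in sheep sperm. In sheep the median log2 difference of this list was -0.26, against -0.42 for all genes tested. The genes named next were chosen by high mean CPM in sperm, which favours genes called higher. The 5 called lower in sheep are not named. CREM was higher in both species, by 5.29 ± 0.14 in sheep (edgeR adjusted p = 2.31e-36) and 3.15 ± 0.20 in rat (adjusted p = 4.05e-15). Its gene also makes repressor forms, which gene counts do not separate. YBX2, a germ-cell protein that stores protamine messengers, was higher by 4.83 ± 0.91 in rat (edgeR adjusted p = 1.91e-05) and 7.36 ± 0.23 in sheep (adjusted p = 2.52e-33). Its relative YBX3 was higher by 2.51 ± 0.37 in rat and 3.64 ± 0.24 in sheep (edgeR adjusted p = 4.43e-07 and 2.71e-19). The late spermatid and sperm genes called higher, counted above, rest on TMM-scaled levels in sheep. On plain CPM their mean log2(CPM + 1) was 0.87 in sperm of animal 688, below every brain library (0.89 to 1.58), and 2.00 to 3.53 in the other 4. Odf1, a protein of the outer dense fibres of the tail, averaged 1438 CPM in rat sperm (144 to 4743), and Oaz3, a spermatid form of antizyme, averaged 1136 CPM (72.8 to 4900). In rat, therefore, Odf1 and Oaz3 stayed above 70 CPM in libraries where Tnp1 was near 0.

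Over the 15 rat sperm libraries, the genes most like Prm1 were not those most like Tnp1. By Pearson's correlation of log2(CPM + 1) among 9374 genes with a mean of at least 10 CPM, the named genes most like Prm1 outside the 5 were P3r3urf (0.984), Tsacc (0.982), Ccdc179 (0.976), C3h20orf144 (0.967) and Rpl39l1 (0.966). Tnp2 was at rank 3 among all genes compared with Prm1, Prm3 at rank 32, Prm2 at rank 50 and Tnp1 at rank 364. The named genes most like Tnp1 were Efcab6 (0.994), Gk2 (0.987), Spmip6 (0.987), Actrt2 (0.987) and Atp1a4 (0.987), and Prm1 was at rank 625 for Tnp1. No gene was among the nearest 5 of both. The lowest values of the 5 genes like Prm1 were 0.700 to 1.45 CPM, and those of the 5 like Tnp1 were 0, as for Tnp1 itself. Libraries 16 and 17 held far more genes at 0 than the others, so a lowest value of 0 is weak evidence of absence. These correlations are over all 15 libraries, 4 of which are far richer in germ-cell messengers, and are a description of likeness with no test.

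Messengers of other cells were abundant in both kinds of sperm sample. In rat sperm the summed level of 13 epididymis and vas deferens genes, 12 of them in the table, ranged from 2779 CPM in library 14 to 27027 CPM in library 11. It was 23525 CPM in library 3, 9726 in library 7 and 18694 in library 13, so libraries rich in protamine messengers spanned nearly the whole range. Aqp2, a water channel, averaged 10662 ± 6198 CPM there (SD, n = 15), more than 10 times the mean of Prm1. In sheep sperm the neutrophil gene S100A9 averaged 10839 ± 9715 CPM (n = 5) and the squamous epithelium keratin KRT13 5339 ± 7147 CPM. The summed level of 9 neutrophil genes was highest in animal 688 (39974 CPM) and lowest in 687 (1584 CPM), and that of squamous epithelium genes was 22136 CPM in 688 against 1377 to 5199 in the other 4. By mean log2(CPM + 1), the neutrophil genes were highest in 694 (6.51), above 688 (6.11). The unnamed entries diluted 688 least, at 22.4% of its counts against 52.9% to 85.2% in the other 4. Animal 688 was also the lowest for all 5 protamine and transition protein genes, and the part of other cells in that was not tested. The neuron genes were called lower in sperm than in brain in 7 of 7 in rat and 5 of 6 in sheep.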

How the data were processed

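The deposited values were read counts assigned to genes for each of 113 libraries, without normalization or pooling. Per the labels, libraries were made with stranded mRNA kits (Kapa for sheep, Watchmaker for rat), read as 150-base pairs, trimmed with Trimmomatic 0.39, aligned with STAR 2.7.5a to ARS-UI_Ramb_v3.0 or GRCr8 and counted by the authors with Rsubread 2.20.0 in R 4.4.2. How strand and reads with several matches were treated is not given in the sources used here. CPM was computed on each library's total. The tests used edgeR 4.0.16 under R 4.3.3 (quasi-likelihood, TMM factors, filterByExpr, prior count 0.125), on the sheep libraries together and on the compared groups in rat, with Benjamini-Hochberg adjustment over all genes tested. The SE was derived from the F statistic. Ratios took the counts plus 0.5, and species were compared over 15504 arrangements of libraries. DESeq2 1.42.0, limma 3.58.1 (voom), other scaling factors, no filter, a replicate block and left-out libraries were alternatives. The test was run on simulated counts first. No 2 libraries held identical values.

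The 5 genes, the lists and the tests were chosen with earlier results of these data known. Besides the 5 genes, the text names the 5 genes most like PRM1 and TNP1 in rat sperm (mean of at least 10 CPM, placeholder symbols left out) and, of each list, those with the 2 highest mean CPM in the sperm of a species; YBX2, PSME4, HSPA2 and others so named in 1 species are given in the other as well. Sheep numbers name the animals that gave both sperm and brain regions, so the numbers pair these samples. Their deviations from group means had a median correlation of 0.035, and with the animal as a block all 5 sheep calls were kept. Sequences and rat positions are RefSeq's (GRCr8).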

Additional observations from a re-analysis of the deposited data

Results flagged for a closer look

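Among the 15 sets of 5 sheep sperm values examined (5 levels and 10 ratios), 2 had a library far from the others by Dixon's test, where chance alone gives about 1 in 20. PRM3 in sheep sperm animal 688 was 3.86 CPM, and the nearest of the other 4 animals was 68.4 CPM. This gap was 0.846 of the whole range, above the critical value of 0.71, but only on plain CPM: it was 0.308 of the range on totals without the unnamed entries (4.98 CPM, nearest 146 CPM) and 0.351 on TMM-scaled CPM (13.7, nearest 203), scales examined after the values were seen. The PRM3 to PRM1 log2 ratio in animal 694 was -1.07, and the nearest of the others was -2.97. Rat sperm, with more than 10 libraries, was not examined in this way.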

How the results depend on the processing

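All 139 alternative values of the 5 genes' log2 differences between sperm and brain or ovary kept their direction and their call, over other scaling factors, DESeq2, voom, no filter, a prior count of 1, a replicate block and left-out libraries. Their sizes moved where the lower group was near 0. Rat Tnp2 against male brain was 12.26 as reported, 9.52 by DESeq2 and 8.16 with the replicate block, and Tnp1 against ovary was 18.27 as reported and 33.53 by DESeq2. The replicate block gave 16268 called genes in sheep (16215 without it), 11925 in rat sperm against brain (12111) and 11837 in ovary against female brain (11832). Rats share a number between tissues, but deviations of same-numbered rat samples correlated above 0.1 in 4 of 15 and 2 of 14 pairs. Genes called in rat sperm against male brain were 18371 by DESeq2 and 22067 with no filter, those against ovary 16112 and 19449, and those in ovary against female brain 18799 with no filter, which tests more genes. In sheep the split of higher and lower calls was 7239 and 8976 as reported, 8907 and 6980 with upper quartile factors, 9913 and 8118 by DESeq2, 6023 and 9911 by voom and 10710 and 9465 with no filter, and the median of all genes moved from -0.42 to 0.31 with upper quartile factors. In rat sperm against brain it was 5663 and 6448 as reported, 4370 and 7891 by voom and 12974 and 9093 with no filter. Against ovary it was 4491 and 5480 as reported, 3130 and 6808 by voom, 8991 and 7121 by DESeq2 and 12566 and 6883 with no filter. The difference between species in PRM2 to TNP1 (0.15) turned to -0.011 without sheep animal 690 and to -0.049 without 699, and leaving out each sheep in turn gave -0.049 to 0.362. Without rat libraries 16 and 17, PRM3 to TNP1 was 2.86 and PRM2 to TNP2 1.73, and without 7, 16 and 17 these were 2.75 and 1.68 and PRM3 to PRM1 was 1.64 (exact permutation, adjusted p = 0.0409), all 3 then past the threshold. The correlation of Tnp1 with Prm1 was 0.665 without libraries 16 and 17, and that of Tnp1 with Tnp2 fell to 0.541 on log2(CPM + 0.1) (n = 11, permutation, adjusted p = 0.0946). Mean TMM-scaled CPM in sheep sperm was 2472 for PRM1, 142 for PRM2, 291 for PRM3, 97.6 for TNP1 and 169 for TNP2, against 1900, 113, 224, 79.4 and 136 on totals without the unnamed entries. The cause was not tested where none is given.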
